A study of Mus musculus with 8 samples.

Results

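The genes described here carry the insulin signal in liver from the cell surface to the nucleus. They are the insulin receptor Insr, its docking substrates Irs1 and Irs2, the regulatory and catalytic subunits of phosphoinositide 3-kinase (PI3K) Pik3r1 and Pik3ca, the kinases Akt1 and Akt2, and the transcription factors Foxo1 and Foxo3. They were chosen as named steps of this pathway and matched by symbol to the gene identifiers of both deposited tables, which gave 9 genes of 23634 in one table and 9 of 21201 in the other.

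Insulin binding activates the kinase of its receptor, which phosphorylates IRS proteins. These recruit PI3K, whose lipid product brings Akt to the membrane, where it is activated. Akt then phosphorylates FoxO factors, which leave the nucleus, so that genes of glucose production are expressed in fasting and fall after a meal, while insulin raises the genes of lipid synthesis through SREBP1. Much of this control acts on protein phosphorylation and location, which RNA-seq does not measure.

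RNA was sequenced from livers of Cpeb4 knockout (Cpeb4 KO) and wild-type mice, with 8 samples in 4 groups of 2: knockout and wild-type liver, and knockout and wild-type purified endoplasmic reticulum (ER). Cpeb4 encodes an RNA-binding protein that recognises cytoplasmic polyadenylation elements in 3′ untranslated regions (3′ UTRs) and acts on poly(A) tails and translation. The ER was isolated from whole livers of mice fasted overnight, and the labels give no feeding state for the other livers and no treatment for any sample. The sources used here give no strain, age, sex or tissue of the Cpeb4 deletion. They also do not say that each sample is a different mouse, so the p-values rest on a spread between samples that may be technical.

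The data are 2 tables of the authors' own knockout against wild-type comparison, called the larger and the smaller table by their number of genes. The RNA preparation is written in neither, and both are left unassigned to liver or ER. The mean counts in the tables carry enough digits to recover the whole reads of the 4 libraries behind each mean, as set out under the processing, and these are the values per library given below. The libraries fall on 2 sides of the comparison, 2 a side, and the side with less Cpeb4 is called the knockout side. Cpeb4 itself had 506 and 580 normalised counts (reads divided by the size factor of the library) on that side of the larger table and 1511 and 1657 on the other, and 193 and 225 against 689 and 634 in the smaller table. This reading sets the direction and is not a separate check of the labels. Relative depth lay between 0.717 and 1.26 (larger table) and between 0.839 and 1.64 (smaller table). Of the hepatocyte markers, all 9 measured entered the tests, with albumin (Alb) at a mean count of 555793 in the authors' deposited smaller table.

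Because the mice lack a protein that binds cytoplasmic polyadenylation elements, these elements were looked up in the members. The letters TTTTAT and TTTTAAT were searched on the transcript strand of the longest annotated 3′ UTR of each gene (GENCODE M21, GRCm38). The element nearest the transcript end is shown in capitals, within 30 bases, for the receptor, 1 substrate, 1 PI3K subunit and 1 FoxO factor. They lie at chr8:3151354-3151383 (minus strand, 450 bases before the end), chr8:10985671-10985700 (minus, 1008 bases), chr3:32468301-32468330 (plus, 174 bases) and chr3:52350635-52350664 (plus, 2575 bases), all in 3′ UTR exon sequence.
Insr: ctctggtcaaatTTTTATctgtatgtgggc
Irs2: tgctggtttattTTTTAATcattgttttgt
Pik3ca: agggttttgtcaTTTTATtgttggtacaag
Foxo1: tagtctagacttTTTTATtcttggaatatc

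At least 1 element occurred in 8 of the 9 members, against 66.3% of 11058 tested genes with a 3′ UTR of 200 bases or more. These shares depend on length, which was not matched: the 3′ UTRs of the members ran from 877 bases (Akt1) to 6240 (Foxo1). Insr had 9 in a 3′ UTR of 4747 bases (1.90 per kb), Pik3ca 8, Foxo1 7, Foxo3 5 and Irs1 4. Irs2, Pik3r1 and Akt1 had 1 each, and Akt2 had none. Per kb, Pik3ca had 1.41, Akt1 1.14, Foxo1 1.12, Foxo3 1.11, Irs1 0.884, Irs2 0.429 and Pik3r1 0.232. The median over the tested genes was 0.871 per kb, and the members lay between percentiles 0 (Akt2) and 76.8 (Insr) of them. Pik3ca was the 1 member with an element in the last 200 bases, where 28.6% of the tested genes had one. A match of letters is a description and not a bound site.

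No member passed the test between the genotypes in either table. Of the 9 members tested in the larger table and the 8 tested in the smaller, 0 passed the authors' adjusted p of 0.05 (DESeq2's Wald test), where 42 of 14180 tested genes (0.296%) and 31 of 11661 (0.266%) did. At an unadjusted p under 0.05 the count of members was also 0 and 0, where 514 and 479 of all tested genes lay under it. The authors' deposited larger table had 4 members above 0 and 5 below, and the deposited smaller table had 5 above and 4 below. The median log2 fold changes of all 9 members, Irs2 included, were -0.03 and 0.01, and those of all tested genes -0.00083 and 0.00085. The fold changes in the tables are drawn towards 0 (moderated), more so for genes with few reads or with a wide modelled spread between libraries. Fold changes without this were therefore refitted from the recovered reads, with 95% intervals. These intervals hold fixed a dispersion (the model's spread between libraries) solved from the deposited values. They do not measure the spread of a gene's own 2 libraries a side, and can be narrower or wider than it would give.

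**Figure D1:**
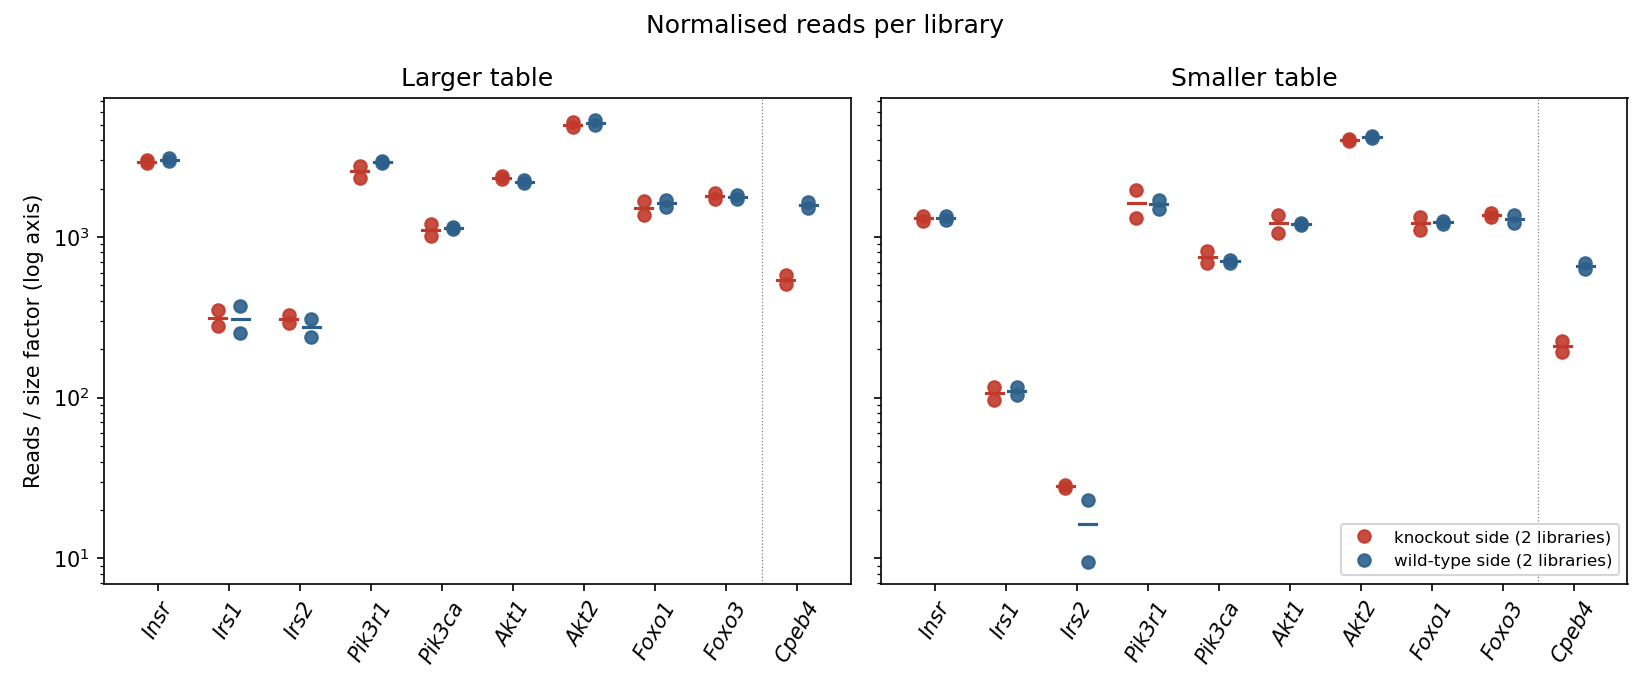
Normalised counts (reads divided by size factor, log axis) of the 9 members and Cpeb4 in each library of the larger (left) and smaller (right) table. Points are libraries, 2 a side, and bars their means; the widest gap among the members is that of Irs2 in the smaller table (28.6 and 27.4 against 23.0 and 9.54), and Cpeb4 lies at 506 and 580 against 1511 and 1657 in the larger table.

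Insr, the receptor tyrosine kinase, lies at chr8:3122061-3279617 on the minus strand. It had 2876 and 3010.2 normalised counts in the knockout libraries of the larger table and 2977 and 3086 in the wild-type libraries. In the smaller table it had 1355 and 1255 in the knockout and 1355 and 1275 in the wild-type libraries. The sides overlapped in both tables. The authors' deposited log2 fold changes were -0.04 ± 0.09 (SE) and -0.01 ± 0.12, each with a Wald adjusted p of 1.00 and 0.999 in turn. Without moderation the knockout level of Insr was 0.971 times the wild-type level in the larger table (95% interval 0.842 to 1.12) and 0.993 times in the smaller (0.808 to 1.22).

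The substrates were the members with the fewest reads. Irs1 (chr1:82233101-82291416, minus strand), an adaptor that docks PI3K, had 280.0 and 349 normalised counts in the knockout libraries of the larger table against 369 and 251 in the wild-type libraries. The smaller table had 97.3 and 116 against 116 and 104. The wild-type libraries of the larger table spanned the knockout libraries, and the sides overlapped in the smaller table too. The authors' deposited log2 fold changes of Irs1 were 0.00 ± 0.12 and -0.02 ± 0.14, and the refit gave ratios of 1.01 (95% interval 0.730 to 1.38) and 0.964 (0.616 to 1.51). Its exons overlap those of Gm9747 on the opposite strand over 2822 bases. Of its 31-base words 30.7% also occur on either strand of another annotated gene, a share that includes this overlap. Its counts are therefore uncertain, since the sources used here give no strand setting for the counting.

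Irs2 (chr8:10984681-11008458, minus strand), the other main IRS adaptor of hepatocytes, had 293 and 325 normalised counts in the knockout libraries of the larger table and 239 and 309 in the wild-type libraries, which overlap. In the smaller table it had 28.6 and 27.4 against 23.0 and 9.54, from 47, 23, 20 and 8 reads. There both knockout libraries were above both wild-type libraries, which is only a description with 2 a side, and the lowest library rests on 8 reads. Its mean of 22.1 in the authors' deposited smaller table lies below the lowest mean with an adjusted p, 31.9. It was thus outside the adjustment there and is not counted as tested. The authors' deposited log2 fold changes were 0.10 ± 0.12 (unadjusted Wald p = 0.393) and 0.11 ± 0.10 (p = 0.279). The refit gave a ratio of 1.13 (95% interval 0.850 to 1.51) in the larger table and 1.72 (0.652 to 4.53) in the smaller. The interval in the smaller table, from few reads of this gene, held both a fall to 0.652 times and a rise to 4.53 times the wild-type level. Leaving out 1 library at a time moved the log2 ratio of Irs2 in the smaller table between 0.28 and 1.55, the higher value without the deeper wild-type library. Its exons overlap 9530052E02Rik on the opposite strand over 162 bases.

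Of the PI3K subunits, Pik3r1 encodes the regulatory p85-alpha subunit that binds IRS proteins, and lies at chr13:101680563-101768217 on the minus strand. It had 2329 and 2781 normalised counts in the knockout libraries of the larger table against 2866 and 2952 in the wild-type libraries, so both knockout libraries were the lower ones. In the smaller table it had 1319 and 1955 against 1705 and 1495, and the knockout libraries lay outside the wild-type ones on both ends. The authors' deposited log2 fold change in the larger table, -0.15 ± 0.10, had the lowest unadjusted p of the members (Wald p = 0.129, adjusted p = 1.00), and the smaller table had 0.02 ± 0.13. The refitted ratios were 0.878 (95% interval 0.742 to 1.04) and 1.02 (0.788 to 1.32). The difference between the tables, 0.17 on the log2 scale, did not pass (z test on the DESeq2 estimates, adjusted p = 1.00).

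Pik3ca, the catalytic p110-alpha subunit (chr3:32397671-32468486, plus strand), had 1013 and 1199 normalised counts in the knockout libraries of the larger table and 1155 and 1121 in the wild-type libraries. The smaller table had 686 and 815 against 720 and 689. In both tables the wild-type pair lay within the span of the knockout pair. The authors' deposited log2 fold changes were -0.03 ± 0.10 and 0.06 ± 0.13, and the refitted ratios 0.970 (95% interval 0.804 to 1.17) and 1.06 (0.836 to 1.35).

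Akt1 (chr12:112653821-112674884, minus strand) and Akt2 (chr7:27591552-27640826, plus strand) encode the kinases downstream of PI3K, of which Akt2 is the main isoform of insulin action in hepatocytes. Akt1 had 2291 and 2377 normalised counts in the knockout libraries of the larger table against 2248 and 2167, and 1059 and 1371 against 1220.1 and 1191 in the smaller. Both knockout libraries were the higher ones in the larger table, at a ratio of 1.06 (95% interval 0.911 to 1.23), while in the smaller table the wild-type pair lay within the knockout pair at a ratio of 1.01 (0.796 to 1.27). Akt2 had 4831 and 5176 against 4962 and 5334 in the larger table, which overlap, and 3975 and 4044 against 4265 and 4122 in the smaller, where both knockout libraries were the lower ones. Its ratios were 0.972 (0.843 to 1.12) and 0.956 (0.800 to 1.14). The authors' deposited log2 fold changes were 0.07 ± 0.09 and 0.01 ± 0.13 for Akt1 and -0.03 ± 0.09 and -0.05 ± 0.11 for Akt2. Of the 31-base words of Akt2, 13.3% also occur in another annotated gene.

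Foxo1 (chr3:52268336-52353221, plus strand) and Foxo3 (chr10:42181841-42276755, minus strand) encode the transcription factors that Akt keeps out of the nucleus. Foxo1 had 1376 and 1671 normalised counts in the knockout libraries of the larger table against 1539 and 1707 in the wild-type libraries. The smaller table had 1108 and 1321 against 1263 and 1201. The sides overlapped in both tables, at ratios of 0.938 (95% interval 0.776 to 1.13) and 0.984 (0.790 to 1.23). Foxo3 had 1727 and 1873 against 1730.0 and 1815 in the larger table, and 1335 and 1416 against 1374 and 1217 in the smaller, which overlap, at ratios of 1.02 (0.866 to 1.19) and 1.06 (0.860 to 1.31). The authors' deposited log2 fold changes were -0.07 ± 0.11 and -0.02 ± 0.12 for Foxo1 and 0.02 ± 0.10 and 0.07 ± 0.12 for Foxo3. The exons of Foxo1 overlap Gm20402 on the opposite strand over 674 bases, and 8.00% of its words are shared, this overlap included.

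**Figure D2:**
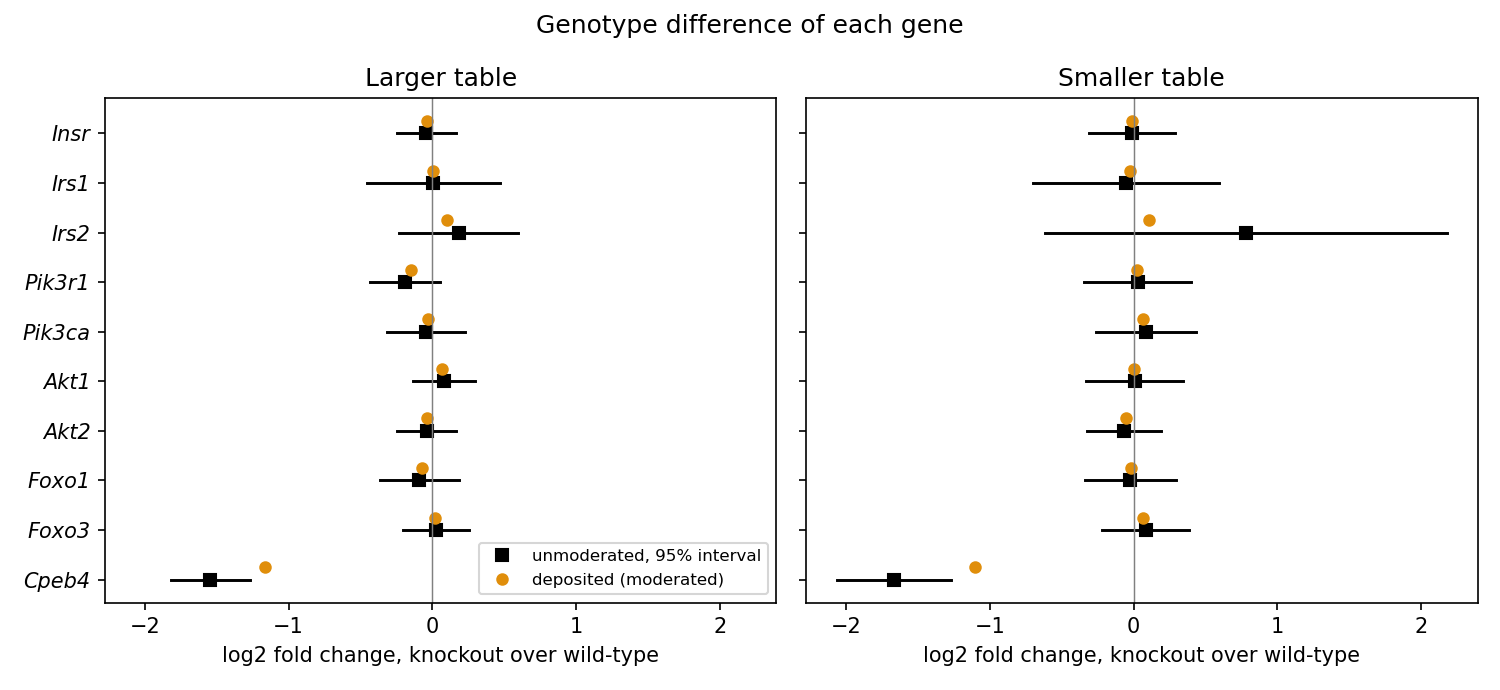
Log2 fold change of knockout over wild-type for the 9 members and Cpeb4 in the larger (left) and smaller (right) table. Squares with lines are refitted values with 95% intervals, circles the authors' deposited values; every member's interval contains 0, the widest being that of Irs2 in the smaller table (-0.62 to 2.18), and Cpeb4 lies at -1.55 and -1.67.

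The members differed in how much transcript they had. Per kilobase (kb) of annotated exon, Akt2 was the most abundant in both tables, with a mean of 712 ± 31.3 normalised counts per kb (SD, n = 4 libraries) in the larger and 575 ± 17.5 in the smaller. Akt1 followed at 554 ± 21.3 and 295 ± 31.2. In the larger table the order went on with Pik3r1 (271 ± 27.6), Foxo3 (236 ± 9.33), Insr (217 ± 6.32), Foxo1 (182 ± 17.4), Pik3ca (123 ± 8.72), Irs2 (46.1 ± 5.97) and Irs1 (34.1 ± 6.10). Among neighbours in that order, the libraries of Foxo3 overlapped those of Pik3r1, and those of Irs1 overlapped those of Irs2. In the smaller table Foxo3 (176 ± 11.3), Pik3r1 (161 ± 27.2) and Foxo1 (141 ± 10.5) came next. There the libraries of Pik3r1 overlapped those of both, while every library of Foxo3 lay above every library of Foxo1. Insr (95.3 ± 3.82), Pik3ca (80.1 ± 6.65), Irs1 (11.8 ± 1.01) and Irs2 (3.50 ± 1.38) came below them. The length used decides part of this order: per kb of the longest transcript Insr stood at 319 in the larger table, above Foxo3 at 261.

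**Figure D3:**
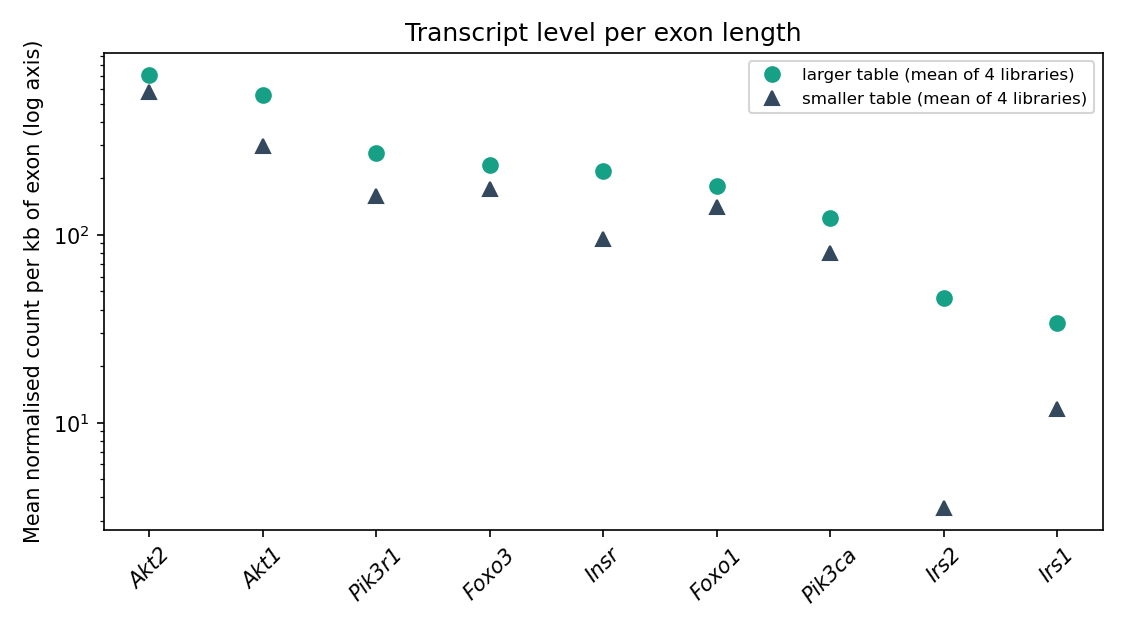
Mean normalised count per kb of exon (log axis) of each member in the larger (circles) and smaller (triangles) table, means of 4 libraries. Akt2 lies highest at 712 and 575, and Irs2 has the widest gap between the tables, 46.1 against 3.50.

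The tables were normalised separately, so their means compare only within a table. The ratio of a member's mean between them is set beside that of the genes tested in the larger table and present in the smaller. The median ratio of smaller over larger table was 0.771 over these 13968 genes. The mean of Irs2 was 13.2 times higher in the larger table, which put its ratio at percentile 5.97 of those genes. Irs2 is in this set only through the larger table, where it is high, so its percentile is a description. The means of Irs1 and Insr were 2.88 and 2.28 times higher there (percentiles 15.2 and 19.6), while Foxo1, Akt2 and Foxo3 lay near the middle (percentiles 50.6, 53.7 and 47.5). Which preparation, or which feeding state, each table holds cannot be told apart from these values. The genotype differences themselves were compared between the tables for the 8 members tested in both, and 0 of 8 passed (z test, adjusted p of 1.00 for each, 0 at an unadjusted p under 0.05), where 2 of 11604 genes (0.0172%) did.

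The other genes of the pathway were taken in 6 lists of signalling steps. Of their members, 72 and 70 were tested (larger and smaller table), and 0 passed in either (DESeq2's Wald test, with 3 and 2 at an unadjusted p under 0.05). Over all tested genes 42 of 14180 (0.296%) and 31 of 11661 (0.266%) passed, and 514 and 479 lay under that unadjusted p. At such shares these counts are no result about the signalling steps. Among other receptors, substrates and adaptors, the medians of 7 tested genes were -0.02 and -0.04. The docking protein Gab1 was lowest at -0.15 ± 0.11 and the adaptor Shc1 highest at 0.08 ± 0.09 in the authors' deposited larger table. Of the other PI3K subunits 9 of 10 were below 0 in the larger table and 7 of 8 in the smaller. Their medians were -0.07 and -0.06, beside -0.00083 and 0.00085 over all tested genes. None of them had an unadjusted Wald p under 0.05, and their signs were not tested as a set. The regulatory subunit Pik3r4 had -0.09 ± 0.11 and the class II enzyme Pik3c2a 0.08 ± 0.09 in the authors' deposited larger table.

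Among the kinases that activate Akt or act beside it, the medians of 11 genes were 0.03 and -0.07. Sgk1, a kinase related to Akt, had 0.26 ± 0.12 and 0.24 ± 0.14, and its relative Sgk2 -0.19 ± 0.10 and -0.21 ± 0.11, in the authors' deposited tables. Among 17 brakes on the pathway the medians were 0.03 and -0.02. Socs3, a cytokine-induced inhibitor of receptor signalling, had 0.24 ± 0.12 and 0.29 ± 0.14 in the authors' deposited tables (Wald p = 0.0446 and 0.0383, adjusted p of 1.00 and 0.999). The receptor phosphatase Ptprf had -0.16 ± 0.09 and -0.04 ± 0.12 in the authors' deposited tables.

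Among 13 outputs of Akt and mTORC1 the medians were -0.02 and 0.02, between glycogen synthase Gys2 at -0.13 ± 0.11 and the ribosomal S6 kinase Rps6kb1 at 0.08 ± 0.10 in the authors' deposited larger table. Among 14 other FoxO factors and partners they were -0.01 and 0.00. The 14-3-3 protein Ywhaz, a family that binds phosphorylated FoxO, had 0.18 ± 0.09 and 0.21 ± 0.11, and the deacetylase Hdac5 -0.16 ± 0.11 and -0.20 ± 0.12, in the authors' deposited tables.

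Calls lay among the target genes of the pathway. Of 23 liver FoxO targets, 1 rose in the larger table, 3 rose in the smaller, and none fell, where 13 of 14180 tested genes (0.0917%) and 19 of 11661 (0.163%) rose. The medians were 0.08 and 0.09, with 16 and 20 of 23 above 0, and 22 and 20 of the 23 did not pass. Of 13 metabolic genes that insulin induces, 2 fell in the larger table, 1 fell in the smaller, and none rose, where 29 of 14180 tested genes (0.205%) and 12 of 11661 (0.103%) fell. Their medians were -0.21 and -0.15, with 12 and 10 of 13 below 0, and 11 and 12 of the 13 did not pass. These lists were drawn up with earlier results of the same tables known, so their counts are a description.

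Ppargc1a, the coactivator PGC-1alpha that acts with FoxO1 on glucose production, rose in both tables. It had 786 and 640 normalised counts in the knockout libraries of the larger table against 384 and 454, and 646 and 540 against 310.5 and 275 in the smaller, with every knockout library above every wild-type library. The refitted ratios were 1.71 (95% interval 1.34 to 2.18) and 2.03 (1.54 to 2.68), and the Wald adjusted p in the authors' deposited tables was 0.00648 and 0.000667. G6pc, the phosphatase that releases glucose, rose in the smaller table, with 4398 and 4439 against 3014 and 1921 and a ratio of 1.79 (1.39 to 2.31). In the authors' deposited tables G6pc had an adjusted p of 0.00614 in the smaller and 0.25 ± 0.12 without passing in the larger. Tob1, an antiproliferative gene, rose in the smaller table with 1614 and 1824 against 1203 and 1030.2 (ratio 1.54, 1.24 to 1.91; adjusted p = 0.0440 in the authors' deposited table), and in the larger it had 3704 and 3358 against 2747 and 2951, which did not pass. The lowest FoxO target was the DNA damage-induced Gadd45a, at -0.18 ± 0.12 and -0.37 ± 0.14 in the authors' deposited tables.

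Igfbp1, a binding protein for insulin-like growth factors and a FoxO target in liver, did not pass and is named after its values were seen. It had 1246 and 574 normalised counts in the knockout libraries of the larger table against 245 and 372, and 713 and 271 against 213 and 159 in the smaller. All knockout libraries were above all wild-type libraries, and the knockout libraries of a table differed from each other by more than the wild-type ones did. The authors' deposited log2 fold changes were 0.21 ± 0.09 (Wald p = 0.0152, adjusted p = 0.850) and 0.19 ± 0.10 (p = 0.0543, adjusted p = 0.999). Without moderation they were 1.56 and 1.41, or ratios of 2.95 (95% interval 1.30 to 6.73) and 2.65 (1.03 to 6.84). The refitted interval in the smaller table leaves out 1 although the deposited unadjusted p there is above 0.05.

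Srebf1, which encodes SREBP1, fell in the larger table, with 1429 and 1806 against 2480 and 2240 (ratio 0.684, 95% interval 0.564 to 0.830; adjusted p = 0.0449 in the authors' deposited table). In the smaller it had 598 and 813 against 960 and 982, a ratio of 0.724 (0.561 to 0.934), and did not pass. Scd1, a desaturase of fatty acid synthesis, fell in both, by 0.57 ± 0.09 and 0.47 ± 0.11 on the log2 scale in the authors' deposited tables (adjusted p = 9.83e-07 and 0.0166). Acly, the ATP citrate lyase, was the 1 gene of the list above 0 in the larger table, with 0.18 ± 0.10 and 0.26 ± 0.11 in the authors' deposited tables. It passed in neither (Wald adjusted p = 0.903 in the smaller). With no filter on the mean, Srebf1 in the larger table and Tob1 in the smaller did not pass (Wald test, adjusted p = 0.0748 and 0.0750). No target of either list passed the test of the difference between the tables (z test).

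**Figure D4:**
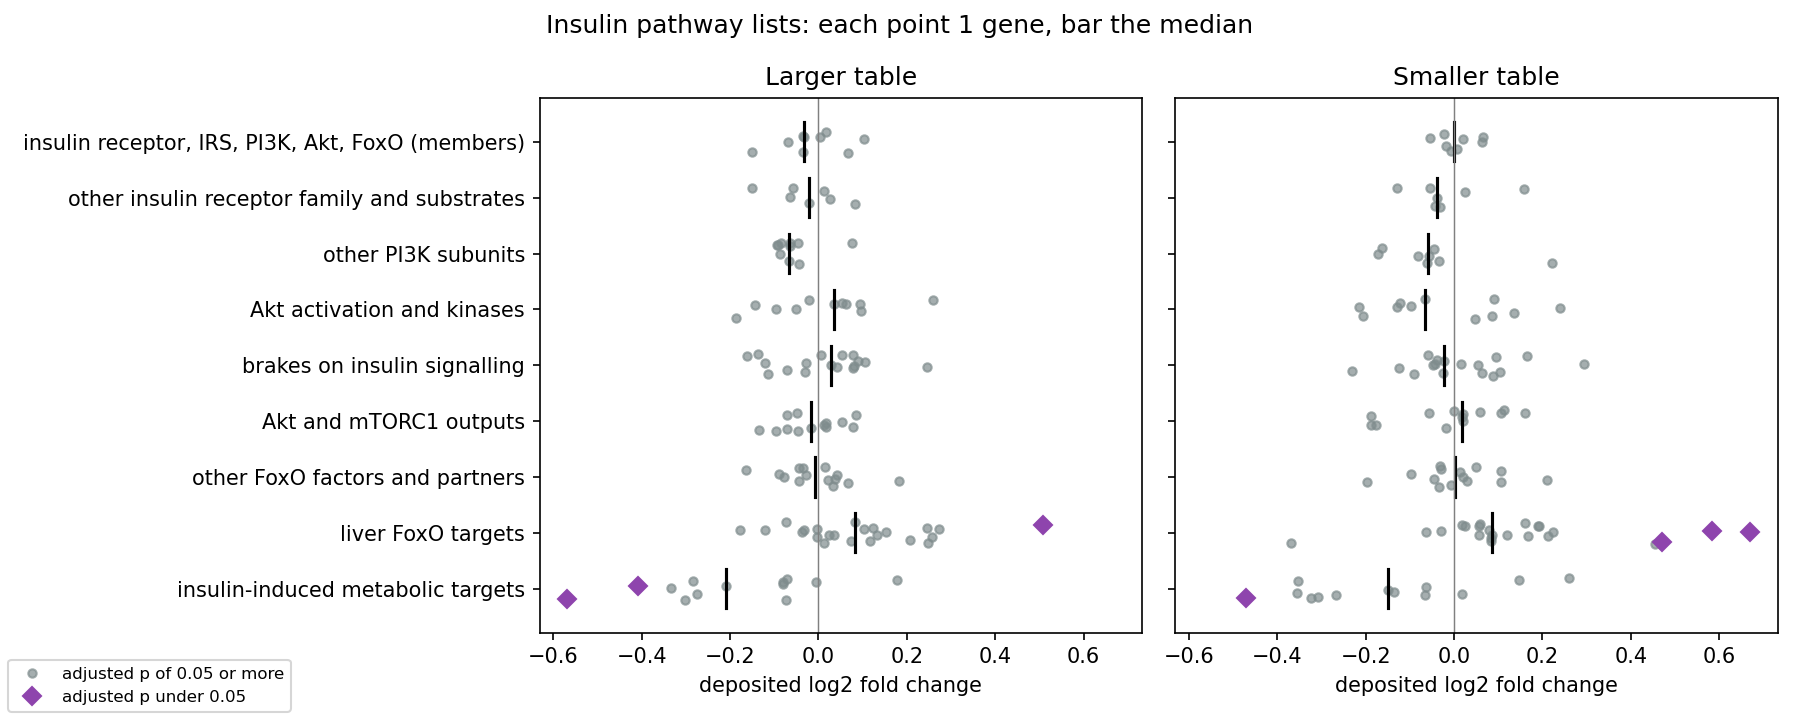
Deposited log2 fold changes (knockout over wild-type) of the members, the 6 signalling lists and the 2 target lists in the larger (left) and smaller (right) table. Points are tested genes, diamonds those under an adjusted p of 0.05, and bars list medians; the diamonds lie in the target lists alone.

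No marker of another cell type passed the test. In bulk samples, fewer cells of a type and less RNA per cell cannot be told apart. Of 8 Kupffer cell markers 7 and 8 were below 0 (medians -0.08 and -0.09, beside -0.00083 and 0.00085 over all tested genes). None of these Kupffer cell markers passed or had an unadjusted Wald p under 0.05. Their summed normalised counts ran from 5106 to 5454 in the knockout and 5103 to 6520 in the wild-type libraries of the larger table, and from 3101 to 3656 and 3445 to 4192 in the smaller, with no marker at 0. Those of 9 endothelial and stellate markers ran from 1528 to 1642 and 1666 to 1744, and from 763 to 799.7 and 781 to 788. The 4 tested erythroid and lymphoid markers had medians of -0.22 and -0.26, and 2 of them, both globins, had an unadjusted Wald p under 0.05 in each table. In the authors' deposited tables Hba-a1 had -0.30 ± 0.10 and -0.42 ± 0.12 and Hbb-bs -0.29 ± 0.10 and -0.36 ± 0.12. Of the other tested markers of this list, Ptprc had -0.14 ± 0.12 and -0.16 ± 0.14 in the authors' deposited tables. The B cell gene Cd79a had 0.03 ± 0.09 and -0.07 ± 0.11 there. The larger table thus had 3 of these 4 markers below 0, and the smaller had all 4. The 9 hepatocyte markers had medians of -0.0024 and -0.0087, with 4 above 0 and 5 below in each table, and none passed. An unadjusted Wald p under 0.05 was reached by 1 of them in the larger table (Ttr) and 2 in the smaller (Ttr and Cps1). Their deposited log2 fold changes were -0.19 ± 0.08 and -0.24 ± 0.11 for Ttr, and 0.21 ± 0.12 and 0.43 ± 0.13 for Cps1. The part of these cells in the results was not tested.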

How the data were processed

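Per the labels' protocols, RNA was extracted from flash-frozen livers or from ER purified from whole livers of fasted mice, and Illumina libraries were made. STAR 2.3.0e, DESeq2 1.6.3 and mm10 are named, without roles, per the submitters' processing notes. The counting tool, its strand setting and the annotation have no mention in the sources used here. Per the file headers, each of the 2 deposited tables gives 6 values per gene: a mean signal (mean count divided by size factors), a log2 fold change with a standard error in log2 units, a Wald score, a p-value and an adjusted p-value. The tables hold no values per sample, so an edgeR test of counts, foreseen for that case, was not used and the authors' Wald test stands. Genes without an adjusted p (means under 17.4 and 31.9) were outside the adjustment and are called not tested, also where they have a Wald p. Called genes have an adjusted p under 0.05.

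Symbols came from GENCODE M21 (23484 of 23634 and 21080 of 21201 identifiers matched). A deposited mean is the sum of whole reads times 1 step per library. Steps were taken from genes with a single read, and refined on 2900 genes, of which 2898 had 1 whole-read solution. Side was read from the sign of the single-read genes' fold changes, and no library was assigned to a sample or matched between tables. Means under 700 were searched without limits, means under 1500 from 0 to 2 times the mean, and others from 0.5 to 1.5 times. Of 18 member means 17 had 1 solution and Akt2 in the larger table had several, of which 1 was left by a refit. Each solution was checked by refitting a moderated negative binomial model and solving the dispersion. All 81 gene means resolved returned the deposited fold change and standard error within 1e-05 (largest miss 1.29e-07). Prior SDs of 0.245 and 0.284 were used, which are 2 times the largest standard errors. Refitted ratios and intervals hold that dispersion fixed and use the normal distribution. With 2 libraries a side an exact two-sided permutation test cannot go below p = 0.333, so none was run on single genes.

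The z test divides the difference between the tables by the combined standard error (root of the sum of squares) (Benjamini-Hochberg over 11604 genes) and takes the tables as independent. Members and lists were chosen with earlier results of these data known. The text names all members, Cpeb4 and every list gene past the authors' test in either table. It also names the lowest and highest gene of each signalling and target list in the larger table. Igfbp1, Pck1, Pklr, Alb, Ttr, Cps1, Hba-a1, Hbb-bs, Cd79a, Ptprc and the overlapping genes were named outside this rule. One item is left out of the lists and not reported here. The scripts were tested on simulated data. Python 3.11.15, pandas 2.3.3, numpy 2.4.6 and scipy 1.17.1 were used.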

Additional observations from a re-analysis of the deposited data

How the results depend on the processing

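The count of members past the test stayed at 0 in both tables and both directions with no filter on the mean, with a mean of at least 100, after recentring on the median of tested genes, and with unmoderated values. So did the count of members that differed between the tables, under the 2 settings run for it. For the members past the test these settings could change little. The lowest unadjusted Wald p of a member was 0.129, that of Pik3r1 in the larger table, and the refit left it at 0.129. Of the pathway lists, the genes that fell in the larger table went from 2 to 1 (without Srebf1) and those that rose in the smaller from 3 to 2 (without Tob1) with no filter on the mean, because more genes entered the adjustment. With a mean of at least 100, 3 genes fell in the larger table. The unmoderated refit was chosen after seeing the data. It took the place of a planned normal approximation, which leaves the Wald statistic unchanged by construction and was not run. No member's fold change changed sign on recentring or in the refit. The medians subtracted were only -0.00083 and 0.00085, and undoing moderation mainly rescales a fold change, so a change of sign was hardly possible.

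Per kb of the longest transcript in place of all exons, levels in the larger and smaller table were 319 and 140.0 for Insr, 384 and 228 for Pik3r1, 844 and 449.9 for Akt1, 1117 and 903 for Akt2, and 261 and 195 for Foxo3, because the length is shorter. Leaving out 1 library at a time changed the sign of 12 of the 18 member ratios. For Pik3r1 the log2 ratio lay between -0.32 and -0.06 (larger table) and between -0.28 and 0.29 (smaller). These are values with no test.

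No paired analysis was possible because the tables carry no sample names, so the libraries cannot be tied to the replicate numbers of the labels. Irs2 in the smaller table rests on few reads, with 8 in its lowest library.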
